A study of Mus musculus with 20 samples.

Results

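The immunity-related GTPases (IRGs) are a family of interferon-induced GTP-binding proteins that act on membranes inside cells. The 9 IRG genes described here are Irgm1, Irgm2, Igtp, Tgtp1, Tgtp2, Iigp1, Ifi47, F830016B08Rik and Gm4951, out of 14793 genes in the deposited table, and all 9 were found in it by their symbols. They were chosen by gene symbol as members of the family, with the values of F830016B08Rik in STING-MSC and MSC joints and of an interferon-induced gene in STING-MSC replicate 3 already known. The values of STING-MSC against MSC joints are therefore given as a description with no test, and of the other comparisons only TLR3-MSC against control shares no joint with it. The p values of TLR3-MSC against control still draw on the spread of all 20 joints, STING-MSC replicate 3 included.

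Bulk mRNA of knee joints was sequenced from 20 mice in 4 groups of 5. All were 12-week-old male C57BL/6Nci mice whose right knee underwent destabilization of the medial meniscus (DMM), a surgical model of osteoarthritis, and no group was sham-operated. Needle insertion alone served as the control, and the other joints received mesenchymal stromal cells (MSC) by injection into the joint in weeks 3 and 5 after surgery. The cells came from the pooled adipose tissue of age-matched male donors. They were injected without activation (MSC), after 2 h with 10 µg/mL of pIC, a double-stranded RNA mimic sensed by TLR3 (TLR3-MSC), or after 2 h with 10 µg/mL of 2′,3′-cGAMP, the natural ligand of STING (STING-MSC). The methods of the study place collection 8 weeks after surgery, whereas its results place it soon after injection, so the interval between injection and collection is not certain here. The tissue held cartilage, synovium, joint capsule and subchondral bone together, so fewer cells of a type and less RNA per cell cannot be told apart.

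In the textbook view of the family, interferon-gamma acts through its receptor and the transcription factor IRF1 to switch the IRG genes on. The regulators Irgm1, Irgm2 and Igtp (also called Irgm3) hold the effectors inactive on the cell's own membranes. The effectors Tgtp1 and Tgtp2 (both Irgb6), Iigp1 (Irga6) and Ifi47 (Irgd) load onto the vacuoles of intracellular parasites, while F830016B08Rik and Gm4951 are less studied relatives of Iigp1.

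Values are normalized counts, which the authors obtained by dividing the reads per gene by a median-ratio size factor of each library. Between 27955496 and 52529973 reads per library fell on the genes of the table. The lowest normalized count of the 9 genes was 28.2, for Tgtp1 in TLR3-MSC replicate 3, so none was listed at 0 in any joint. Of all genes, 296 were listed at 0 in MSC replicate 5, a library of 36507606 reads, and 0 to 97 in the other joints. Marker genes of the joint tissues were measured in every joint. The summed count of 6 chondrocyte genes (Comp the most abundant per kilobase) lay between 12924 and 178439, and that of 5 synovial fibroblast genes (Prg4 the most abundant) between 143134 and 1041172. Markers of other tissues were abundant as well, with a summed count of 692545 to 2969819 for 5 skeletal muscle genes, of 315402 to 751403 for 8 neutrophil genes and of 814815 to 1734625 for 3 erythroid genes.

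The genes lie in clusters on 2 chromosomes of the mouse genome GRCm39, given here by the deposited coordinates. On chromosome 11, the first cluster holds Irgm1 (ENSMUSG00000046879) at 48752795 to 48762511 on the minus strand, Tgtp1 (ENSMUSG00000078922) at 48876154 to 48885000 on the minus strand, Tgtp2 (ENSMUSG00000078921) at 48948021 to 48955034 on the minus strand and Ifi47 (ENSMUSG00000078920) at 48967414 to 48987802 on the plus strand. A second cluster on the same chromosome holds Igtp (ENSMUSG00000078853) at 58090382 to 58098418 on the plus strand and Irgm2 (ENSMUSG00000069874) at 58090444 to 58113609 on the plus strand. On chromosome 18 lie Gm4951 (ENSMUSG00000073555) at 60345152 to 60380893 on the plus strand, F830016B08Rik (ENSMUSG00000090942) at 60426452 to 60436089 on the plus strand and Iigp1 (ENSMUSG00000054072) at 60509099 to 60525707 on the plus strand.

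Tgtp1 and Tgtp2 are near-identical copies. Of all 150-base windows of the annotated Tgtp1 transcripts, 66.6% also occurred in transcripts of other genes, and 61.2% in those of Tgtp2. For Tgtp2 the share was 68.4%, all with Tgtp1, whereas it was 1.40% for Irgm2 and 1.03% for Igtp, shared with each other, and 1.40% for F830016B08Rik. Irgm1, Iigp1, Ifi47 and Gm4951 shared 0% of their windows. Reads from the Tgtp pair could thus be split or dropped by the counting, and their levels are less certain than the others. The ratio of Tgtp2 to Tgtp1 counts ranged from 2.03 in MSC replicate 5 to 9.78 in STING-MSC replicate 3. Annotated exons of Irgm2 and Igtp also overlap on the same strand over 4.3% and 3.6% of their length. Exons of Tgtp1 overlap the family gene Gm12185 over 9.7%, and those of Ifi47 the gene Or2v1 over 3.9%. Genes on the opposite strand overlap the exons of Ifi47 over 12.7%, of Irgm1 over 7.8% and of Irgm2 over 7.7% of their length. The sources used here do not say whether the counting used strand.

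Levels of different genes were compared per kilobase (kb) of annotated exon, as normalized counts per kb over all 20 joints. Ifi47 had the highest level at 431 ± 121 (SD, n = 20), followed by Irgm2 at 338 ± 187, Igtp at 275 ± 145 and Irgm1 at 192 ± 65.0. F830016B08Rik stood at 121 ± 58.3 and its relative, the effector Iigp1, at 115 ± 164. Tgtp2 had 109.7 ± 85.2, Gm4951 34.9 ± 22.8 and Tgtp1 21.2 ± 9.53 normalized counts per kb. Neighbours in this order differed by less than the larger of their SDs, except Irgm1 and F830016B08Rik. By their medians over the joints, Iigp1 (68.0) stood below Tgtp2 (82.3). The median level of all genes with an exon length was 132 normalized counts per kb, so the 3 regulators and Ifi47 stood above the typical gene of the table.

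The regulator Irgm1 had normalized counts of 1096, 1265, 994, 879.5 and 1645 in control replicates 1 to 5 and 1306, 879.8, 1204, 1161 and 927 in MSC replicates 1 to 5. Irgm1 counts were 1501, 953, 1114, 1115 and 1001 in TLR3-MSC replicates 1 to 5 and 1035, 1167, 2769, 1144 and 1286 in STING-MSC replicates 1 to 5. STING-MSC replicate 3 had the highest Irgm1 count and control replicate 5 the next, with TLR3-MSC replicate 1 behind them, and the ranges of all 4 groups overlapped. Irgm2 had normalized counts of 948, 1248, 1004, 1103 and 1659 in control replicates 1 to 5 and 1281, 985, 968, 1058 and 1380.2 in MSC replicates 1 to 5. Irgm2 counts were 1298, 1016, 979, 951 and 949 in TLR3-MSC replicates 1 to 5 and 1006, 1375, 4113, 992 and 958 in STING-MSC replicates 1 to 5. STING-MSC replicate 3 exceeded every other joint in Irgm2 by more than 2-fold, control replicate 5 followed, and the groups overlapped.

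Igtp is the regulator also called Irgm3. Igtp had normalized counts of 1294, 1246, 934, 838 and 1855 in control replicates 1 to 5 and 1391, 807, 1051, 1289 and 889.6 in MSC replicates 1 to 5. Igtp counts were 1333, 832, 877, 1051 and 859 in TLR3-MSC replicates 1 to 5 and 1061, 1268, 3839.5, 1111 and 1243 in STING-MSC replicates 1 to 5. The order was the same at the top, with STING-MSC replicate 3 above control replicate 5, and MSC replicate 2 was lowest, within overlapping groups.

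Iigp1, the best-studied effector, had normalized counts of 440.4, 759, 459, 351 and 1323 in control replicates 1 to 5 and 739, 485, 360.2, 423 and 451 in MSC replicates 1 to 5. Iigp1 counts were 603, 407, 320.4, 393 and 382 in TLR3-MSC replicates 1 to 5 and 333, 572, 5052, 425 and 322 in STING-MSC replicates 1 to 5. In STING-MSC replicate 3 the Iigp1 count stood far above the other joints, control replicate 5 came next, and the remaining joints of all groups overlapped. Tgtp2 had normalized counts of 239, 437, 195, 165 and 606 in control replicates 1 to 5 and 403, 209.6, 242, 246 and 132 in MSC replicates 1 to 5. Tgtp2 counts were 370.0, 209, 156, 238 and 242 in TLR3-MSC replicates 1 to 5 and 249, 334, 1275, 264 and 231 in STING-MSC replicates 1 to 5. For Tgtp2, STING-MSC replicate 3 was again highest and control replicate 5 second, MSC replicate 5 was lowest, and the groups overlapped.

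Tgtp1 had normalized counts of 54.0, 99.1, 81.7, 47.5 and 156 in control replicates 1 to 5 and 94.5, 45.5, 55.7, 50.3 and 65.1 in MSC replicates 1 to 5. Tgtp1 counts were 52.3, 59.0, 28.2, 38.3 and 79.1 in TLR3-MSC replicates 1 to 5 and 49.8, 77.1, 130.3, 63.7 and 60.4 in STING-MSC replicates 1 to 5. For Tgtp1 the order of the top joints was exchanged, with control replicate 5 above STING-MSC replicate 3, TLR3-MSC replicate 3 was lowest, and the groups overlapped. Ifi47, another effector, had normalized counts of 1315, 1203, 1103, 682 and 1495 in control replicates 1 to 5 and 1649, 904, 1341, 1481 and 761 in MSC replicates 1 to 5. Ifi47 counts were 1333, 964, 857, 1253 and 1005 in TLR3-MSC replicates 1 to 5 and 1044, 1179, 2187, 1298 and 1456 in STING-MSC replicates 1 to 5. Ifi47 varied less than Iigp1, MSC replicate 1 rather than control replicate 5 came after STING-MSC replicate 3, and the groups overlapped.

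Gm4951 had normalized counts of 90.0, 128, 90.5, 88.6 and 211 in control replicates 1 to 5 and 182, 129, 66.7, 112 and 47.8 in MSC replicates 1 to 5. Gm4951 counts were 183, 85.7, 91.2, 119 and 89.3 in TLR3-MSC replicates 1 to 5 and 78.7, 97.9, 440.1, 96.2 and 154 in STING-MSC replicates 1 to 5. Gm4951 was highest in STING-MSC replicate 3 and next in control replicate 5, and MSC replicate 5 was lowest, in groups that overlapped. F830016B08Rik had normalized counts of 535, 538, 490.1, 844 and 623 in control replicates 1 to 5 and 222, 461, 515, 368 and 665 in MSC replicates 1 to 5. F830016B08Rik counts were 538, 1047, 1165, 401 and 593 in TLR3-MSC replicates 1 to 5 and 1593, 1219.5, 1056, 752 and 573 in STING-MSC replicates 1 to 5. F830016B08Rik had a different order of joints, with STING-MSC replicates 1 and 2 highest, TLR3-MSC replicate 3 next and STING-MSC replicate 3 after it, and MSC replicate 1 was lowest. In F830016B08Rik 4 of 5 STING-MSC joints lay above every MSC joint and the groups still overlapped, in STING-MSC replicate 5 at 573 and MSC replicate 5 at 665.

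**Figure D1:**
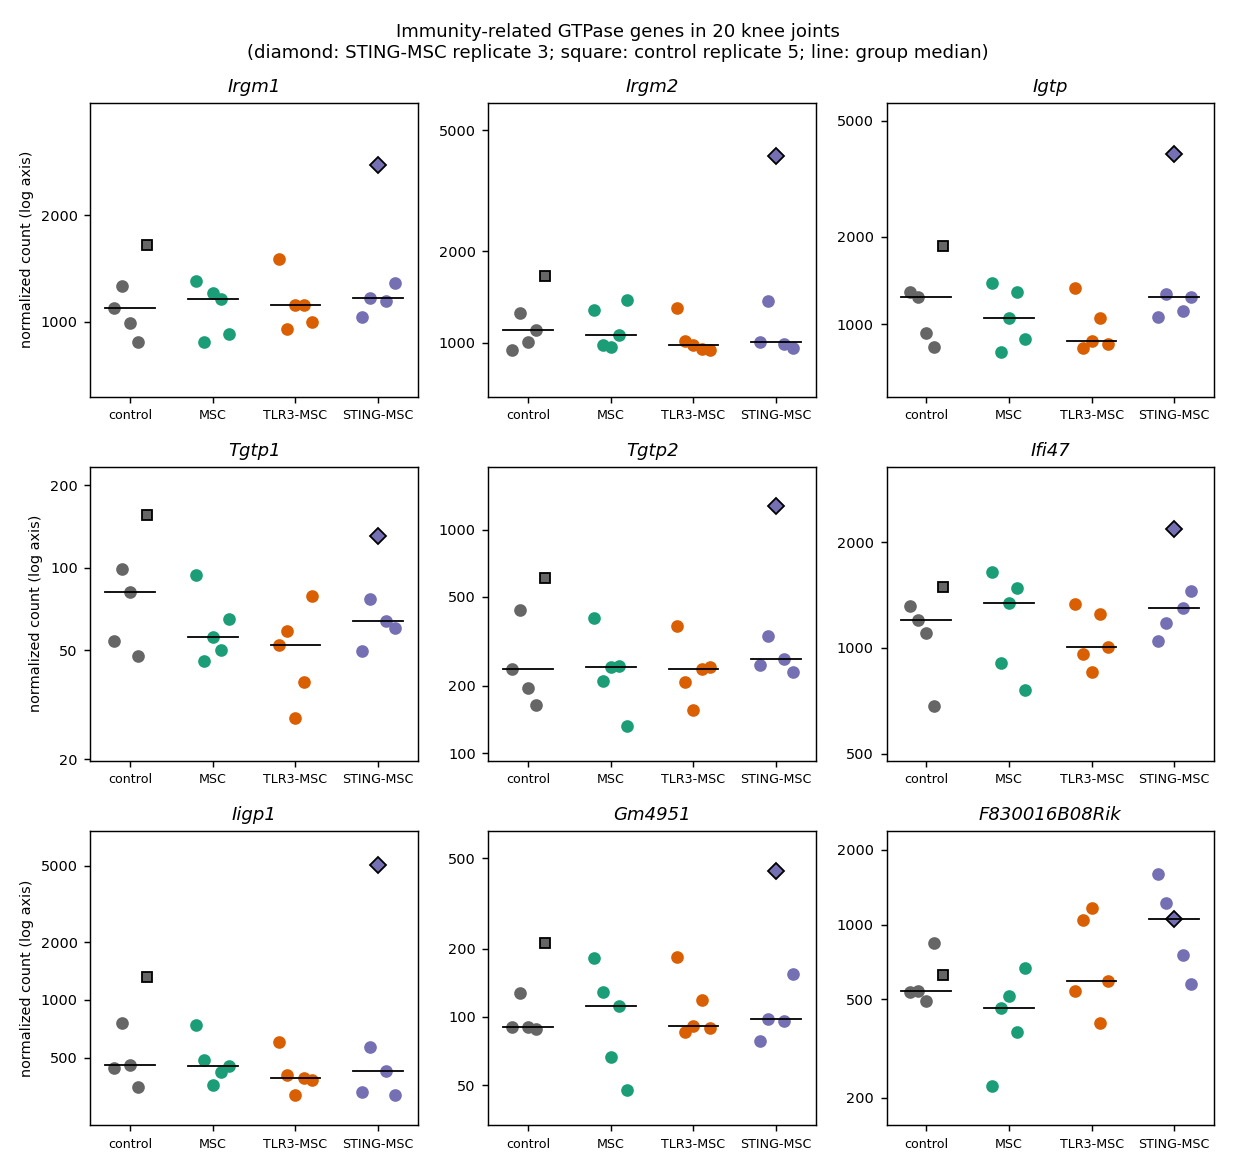
Normalized counts (log axis) of the 9 IRG genes in each of the 20 joints by group, with a line at each group's median, a diamond for STING-MSC replicate 3 and a square for control replicate 5. The diamond is the highest joint in 7 of 9 genes, up to 5052 for Iigp1, whereas for F830016B08Rik the highest joint is STING-MSC replicate 1 at 1593.

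Across the joints, 8 of the genes varied together and F830016B08Rik did not. After subtracting group means, the log2 count of each gene was correlated with the mean of the other 8 over the 20 joints, as a description. Iigp1 had Pearson r = 0.96 and Spearman rho = 0.85, Tgtp2 0.94 and 0.91, and Irgm1 0.93 and 0.79. Igtp had r = 0.93 and rho = 0.83, Irgm2 0.89 and 0.69, and Gm4951 0.80 and 0.57. Tgtp1 and Ifi47 both had r = 0.68, with rho = 0.55 and 0.67. For F830016B08Rik r was −0.27 and rho −0.35. Of the 36 pairs of genes, the closest were Irgm1 and Igtp at r = 0.97 and Irgm2 and Iigp1 at 0.95, and the lowest was F830016B08Rik and Ifi47 at −0.62. Without the 2 joints farthest from the median of the x axis, the r with the other genes was 0.90 for Tgtp2, 0.84 for Iigp1, 0.74 for Irgm1 and Igtp, 0.55 for Ifi47, 0.51 for Irgm2, 0.48 for Gm4951, 0.45 for Tgtp1 and −0.67 for F830016B08Rik.

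A single joint, STING-MSC replicate 3, stood apart from the rest. It had the highest count of 7 of the 9 genes and the second highest of 1. Its counts relative to the median of the other 19 joints were 11.9-fold for Iigp1, 5.27-fold for Tgtp2, 4.57-fold for Gm4951, 4.09-fold for Irgm2 and 3.62-fold for Igtp. They were 2.48-fold for Irgm1, 2.21-fold for Tgtp1, 1.84-fold for F830016B08Rik and 1.82-fold for Ifi47. So 7 of 9 genes were at least 2-fold above that median, as were 131 of all genes (0.886%), and by this ratio Iigp1 ranked 5 among all genes. These shares describe the joint and test nothing, because an interferon-induced gene in it was known when the family was chosen. The joint was the highest of the 20 for 362 genes (2.45%). Its median ratio over all genes was 1.00 and its library of 33274155 reads lay within the range of the others. Within the STING-MSC group, joints were compared by Dixon's ratio of the gap next to a joint to the range of its group of 5. On counts without log2, this ratio set replicate 3 apart for 6 of the 9 genes. Of all genes, 7.37% had a joint set apart in that group.

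Control replicate 5 was the next joint. It had the highest count of 1 of the 9 genes and the second highest of 6, and its ratio to the median of the other joints was 3.11 for Iigp1, 2.64 for Tgtp1, 2.50 for Tgtp2 and 2.19 for Gm4951. Thus 4 of the genes were at least 2-fold above that median, against 195 of all genes (1.32%). The regulators had ratios of 1.75 for Igtp, 1.65 for Irgm2 and 1.47 for Irgm1. This library was the deepest, with 52529973 reads, and the part of depth in these values was not tested. Within the control group 0 of the 9 genes had a joint, control replicate 5 included, set apart by Dixon's ratio. Of all genes, 5.05% had some control joint set apart. In the TLR3-MSC group, replicate 1 was set apart for Irgm2 at 1298, which is 1 of the 9 genes against 5.53% of all genes, and in the MSC group 0 of the 9 were against 5.52%.

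Regulators and effectors stood in different proportions from joint to joint. Iigp1 had 1.82 times as many counts as Irgm1 in STING-MSC replicate 3, 0.804 times as many in control replicate 5 and 0.251 to 0.600 times as many in all other joints. F830016B08Rik had 0.382 times as many counts as Irgm1 in STING-MSC replicate 3, 1.54 times as many in STING-MSC replicate 1 and 0.170 times as many in MSC replicate 1. These ratios are of counts within a joint and compare joints, not the levels of the genes.

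MSC joints were compared with control joints to see the effect of non-activated cells against needle insertion alone. On the log2 scale 8 of the 9 genes had a lower mean after MSC, with a median log2 fold change of −0.24 against −0.04 over all genes. F830016B08Rik had the largest log2 difference in limma, −0.50 (SE 0.33), with 446 ± 165 after MSC and 606 ± 141 in control joints (SD, n = 5). This rank depended on the tool and on a single joint. Tgtp1 had the larger difference in edgeR (−0.48 against −0.42) and DESeq2 (−0.50 against −0.44). Without MSC replicate 1, F830016B08Rik was at −0.27 and Tgtp1 at −0.56. Igtp stood at 1085 ± 251 and 1233 ± 399, and Ifi47, the only gene with a higher mean, at 1227 ± 379.8 and 1159.7 ± 304. A gene was called where its p was 0.05 or less without adjustment and its change 2-fold or more. In limma 0 of the 9 genes were called, against 0.730% of all genes, and edgeR and DESeq2 also called 0. Leaving aside F830016B08Rik, whose MSC values were known beforehand, 0 of the other 8 had an unadjusted p of 0.05 or less in any of the 3 tools. A false discovery rate (FDR) of 0.05 or less was found for 0 of the 9 in each tool, against 0.00676% of all genes in limma, where 1265 had an unadjusted p of 0.05 or less (1309 in edgeR and 1432 in DESeq2), and for 0.101% and 0.732% of all genes with a p in edgeR and DESeq2. DESeq2 gave no p for Iigp1 in any comparison, so the DESeq2 counts leave it out. Without control replicate 5, 4 genes were higher and 5 lower, with a median of −0.01.

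TLR3-MSC joints were compared with control joints to see the effect of cells activated through TLR3, in the only comparison that shares no joint with the one known beforehand. Its SE and p values are not free of the known joints, because the 3 tools took the spread of each gene from all 20 joints. Again 8 of 9 genes had a lower mean, with a median log2 fold change of −0.18 against −0.01 over all genes. Tgtp1 had 51.4 ± 19.6 after TLR3-MSC and 87.6 ± 43.5 in control joints (SD, n = 5), and 2 of 5 TLR3-MSC joints lay below every control joint. The difference on the log2 scale was −0.71 (SE 0.34, unadjusted p = 0.0488 and FDR = 1.00 from limma), and without control replicate 5 it was −0.47. The unadjusted p for Tgtp1 was above 0.05 with the replicate number as a block, after quantile normalization, with only the groups compared and without control replicate 5. It was above 0.05 also with Tgtp1 and Tgtp2 summed, where the log2 fold change was −0.39. The regulators Irgm1, Irgm2 and Igtp had log2 fold changes of −0.03, −0.18 and −0.28, each within 1 standard error. That standard error includes the spread of STING-MSC replicate 3, so it does not measure the spread of the compared groups alone. F830016B08Rik was the gene with a higher mean, 749 ± 336 against 606 ± 141. In limma 0 of the 9 genes were called, against 0.331% of all genes, and edgeR and DESeq2 called 0. Each tool gave 1 gene an unadjusted p of 0.05 or less. The FDR was 0.05 or less for 0 of the 9 in all 3 tools, against 0% of all genes in limma, where 530 had an unadjusted p of 0.05 or less (563 in edgeR and 629 in DESeq2), and for 0 and 3 of all genes in edgeR and DESeq2. Without control replicate 5, 4 genes were higher and 5 lower, with a median of −0.05.

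STING-MSC joints were compared with control joints to see the effect of cells activated through STING. Here 8 of 9 genes had a higher mean, with a median log2 fold change of 0.27 against 0.01 over all genes, and this direction rested on replicate 3. Without that joint 3 genes were higher and 6 lower, with a median of −0.12 and a log2 fold change of −0.55 for Iigp1, whereas without control replicate 5 all 9 were higher, with a median of 0.47. Iigp1 had 1341 ± 2077 after STING-MSC (SD, n = 5) and 413 ± 116 without replicate 3 (n = 4), beside 666 ± 398 in control joints. F830016B08Rik had 1039 ± 399.9 against 606 ± 141 (SD, n = 5), with 3 of 5 STING-MSC joints above every control joint. On the log2 scale this was 0.71 higher (SE 0.33), and 0.69 without STING-MSC replicate 3. No p is given for it, because its values in these STING-MSC joints were known when the genes were chosen. In limma 0 of the 9 genes were called, against 2.06% of all genes, and edgeR and DESeq2 called 0. Of the other 8, 0 had an unadjusted p of 0.05 or less in any of the tools. Replicate 3, in which an interferon-induced gene was known beforehand, is part of these p values, so they are a description too. The FDR was 0.05 or less for 0 of the 9 in the 3 tools, against 0% of all genes in limma, where 1808 had an unadjusted p of 0.05 or less (1970 in edgeR and 2242 in DESeq2), and for 0 and 85 of all genes in edgeR and DESeq2.

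TLR3-MSC and MSC joints differ in the activation of the injected cells. The regulators and effectors were divided, with 4 genes higher and 5 lower after TLR3-MSC and a median log2 fold change of −0.12 against 0.03 over all genes. F830016B08Rik had 749 ± 336 in TLR3-MSC and 446 ± 165 in MSC joints (SD, n = 5), and 2 of 5 TLR3-MSC joints, replicates 2 and 3, lay above every MSC joint. This difference was 0.72 on the log2 scale (SE 0.33), and 0.49 without MSC replicate 1, and it is given without a p because the MSC values of this gene were known beforehand. The other 8 genes had log2 fold changes from −0.31 for Tgtp1 to 0.17 for Gm4951. Tgtp2 stood at 0.01, and at −0.05 after quantile normalization. In limma 0 of the 9 genes were called, against 0.399% of all genes, and edgeR and DESeq2 called 0. An unadjusted p of 0.05 or less was found for 0 of the other 8 in each tool. The FDR was 0.05 or less for 0 of the 9 in the 3 tools, against 0% of all genes in limma, where 574 had an unadjusted p of 0.05 or less (590 in edgeR and 694 in DESeq2), and for 1 and 7 of all genes in edgeR and DESeq2.

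STING-MSC and TLR3-MSC joints differ in the pathway through which the cells were activated. All 9 genes had a higher mean in STING-MSC joints, by 0.29 to 0.70 on the log2 scale and with a median of 0.50 against 0.02 over all genes. Without STING-MSC replicate 3, 7 were higher and 2 lower, with a median of 0.19, and the log2 fold change of Iigp1 went from 0.70 to −0.03 and that of Gm4951 from 0.34 to −0.07. The regulator Igtp had 1705 ± 1197 after STING-MSC and 990.3 ± 209.8 after TLR3-MSC (SD, n = 5), which is 0.60 higher on the log2 scale (SE 0.29, unadjusted p = 0.0541 and FDR = 0.890 from limma). Without replicate 3 the Igtp log2 fold change was 0.26. In limma 0 of the 9 genes were called, against 0.622% of all genes, and DESeq2 called 0. The edgeR test called 1, Iigp1, with a log2 fold change of 1.64 and an unadjusted p of 0.0195 (FDR = 0.923 from edgeR), while of all genes edgeR called 234 and DESeq2 232. Leaving aside F830016B08Rik, the unadjusted p was 0.05 or less for 0 of the other 8 in limma, 2 in edgeR and 3 in DESeq2, and for 605 and 676 of all genes in edgeR and DESeq2. The p values of this comparison include replicate 3, in which an interferon-induced gene was known beforehand, so they are a description and nothing is read from them. The FDR was 0.05 or less for 0 of the 9 in the 3 tools, against 0% of all genes in limma, where 380 had an unadjusted p of 0.05 or less, and for 0 and 2 of all genes in edgeR and DESeq2.

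For STING-MSC against MSC joints the values are a description, because they were known when the genes were chosen. All 9 genes had a higher mean after STING-MSC, from a log2 fold change of 0.23 for Ifi47 to 1.22 for F830016B08Rik, with a median of 0.48 against 0.02 over all genes. Called by limma were 75 of all genes (0.507%), and from this share nothing is read for the 9. Without STING-MSC replicate 3, 7 genes were higher and 2 lower, with a median of 0.09. F830016B08Rik was then at 1.19, whereas Iigp1 was at −0.25.

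The genes of the interferon pathways were described from lists, of which 78 genes were in the table besides the 9. In limma the only one called in the 5 comparisons with a p was Gbp11, a guanylate-binding protein gene, higher after MSC than in control joints at 16.0 ± 9.51 against 4.97 ± 5.40 (SD, n = 5). The log2 fold change of Gbp11 was 1.87 (SE 0.81, unadjusted p = 0.0315 and FDR = 0.520 from limma), and its counts lay between 0 and 34.6, in the range where few reads decide a value. Of the 78 genes, 0, 0, 1, 0 and 2 were called in edgeR and 0, 0, 0, 0 and 1 in DESeq2, for MSC, TLR3-MSC and STING-MSC against control, TLR3-MSC against MSC, and STING-MSC against TLR3-MSC. In edgeR these were Gbp2b against control and Gbp2b and Cxcl9 against TLR3-MSC, and in DESeq2 Gbp6, all named after their values were seen. Gbp2b, Cxcl9 and Gbp6 stood at 599, 2853 and 459 in STING-MSC replicate 3 and at most at 11.2, 254 and 97.9 in the other joints of that group, so this joint carries their calls, which are a description. Of all genes edgeR called 77, 42, 425, 76 and 234 and DESeq2 89, 48, 430, 59 and 232 in that order. The unadjusted p from limma was 0.05 or less for 4, 4, 7, 5 and 1 of the 78, and for 1265, 530, 1808, 574 and 380 of all 14793 genes. The FDR was 0.05 or less for 0 of the 78 in limma and edgeR and for 1 in DESeq2, Jak1 in STING-MSC against control joints (named after its value was seen).

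Receptors and transcription factors of interferon-gamma signalling were present in every joint. The receptor gene Ifngr1 had 3645 ± 219.7 normalized counts in control, 4111 ± 396 in MSC, 3999 ± 310.1 in TLR3-MSC and 4210.3 ± 403 in STING-MSC joints (SD, n = 5). Ifngr2, the other receptor chain, had 2851 ± 225, 3158 ± 259, 2915 ± 249 and 2966 ± 278 in the same order. Irf1, which drives IRG transcription, stood at 1338 ± 262, 1538 ± 253, 1144 ± 93.3 and 1526 ± 621, the last falling to 1255 ± 161 (n = 4), below the control mean, without STING-MSC replicate 3. Irf8 stood at 3987 ± 840.4, 4291 ± 1041, 4267 ± 759.8 and 5166 ± 999. Limma called 0 of these 4 genes. Among them the unadjusted p from limma was 0.05 or less for Ifngr1 in MSC against control (0.0477, log2 fold change 0.17, FDR = 0.577) and STING-MSC against control (0.0200, 0.20, FDR = 0.366), and for Irf1 in TLR3-MSC against MSC (0.0459, −0.41, FDR = 0.978). Ifng, the gene of the cytokine itself, Gm12250, another IRG, and Ifnb1 were not in the table and are not analysed here. Against control joints, the median log2 fold change after STING-MSC was 0.15 for the 9 interferon-gamma pathway genes, 0.24 for the 11 guanylate-binding protein genes, 0.14 for the 13 interferon-gamma-induced genes and 0.14 for the 20 type I interferon-induced genes. It was 0.31 for the 6 other IRG family genes, 0.15 for the 8 type I interferon pathway genes and 0.01 for the 11 autophagy conjugation genes, beside 0.01 for all genes. Without STING-MSC replicate 3, left out here after the data were seen, the medians were 0.02 for the interferon-gamma pathway, −0.14 for the guanylate-binding proteins (8 of 11 lower), −0.08 for the interferon-gamma-induced genes (11 of 13 lower) and 0.06 for the type I interferon-induced genes. Those of the other IRG genes, the type I pathway and the autophagy genes were then 0.07, 0.13 and 0.01. Leaving out control replicate 5 instead, likewise after the data were seen, moved the medians after STING-MSC the other way for most lists. They were 0.20 for the interferon-gamma pathway, 0.41 for the guanylate-binding proteins, 0.20 for interferon-gamma-induced and 0.23 for type I interferon-induced genes. For the other IRG genes, the type I pathway and the autophagy genes they were 0.42, 0.16 and 0.01.

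After MSC, the medians against control were 0.10 for the interferon-gamma pathway, −0.17 for the guanylate-binding proteins, 0.01 for interferon-gamma-induced and −0.05 for type I interferon-induced genes. After TLR3-MSC they were 0.03, −0.08, −0.17 and 0.15 in the same order. Without control replicate 5, also left out after the data were seen, they were 0.13, −0.01, 0.09 and 0.02 after MSC and 0.09, 0.06, −0.09 and 0.19 after TLR3-MSC. Against MSC joints, the type I interferon-induced genes had a median of 0.17 after TLR3-MSC and the interferon-gamma-induced genes one of −0.12. Between STING-MSC and TLR3-MSC joints the medians were 0.35 for the guanylate-binding proteins, 0.30 for interferon-gamma-induced and 0.05 for type I interferon-induced genes, and −0.05, 0.08 and −0.10 without replicate 3. The most abundant gene per kilobase was Ifngr1 in the interferon-gamma pathway, Irf3 in the type I pathway, Irgq among the other IRG genes, Gbp2 among the guanylate-binding proteins, Gabarap among the autophagy genes, Cd74 among the interferon-gamma-induced and Isg15 among the type I interferon-induced genes. In STING-MSC and control joints Irgq had 1062 ± 73.9 and 1267 ± 209, Irf3 1593 ± 128 and 1435 ± 86.9, and Gabarap 8989.8 ± 193 and 9547 ± 831 (SD, n = 5). Cd74 had 14866 ± 7153 and 12743 ± 2338, and Isg15 1619 ± 332 and 1518 ± 443. Without STING-MSC replicate 3, Cd74 stood at 11729 ± 1607 (SD, n = 4), below the control mean.

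The lists set STING-MSC replicate 3 apart to different degrees. The counts below describe the joint and test nothing, because an interferon-induced gene in it was known beforehand. Over all genes, STING-MSC replicate 3 was the highest joint for 2.45%. Its summed count of the 11 guanylate-binding protein genes, cytosolic GTPases that act beside the IRGs on pathogen vacuoles, was 11353, and the other 19 joints lay between 2509.7 and 4757. It was the highest joint for 9 of the 11. Gbp2 had 3728 in this joint and at most 932 in the others, and Gbp2b, named after its values were seen, had 599 and at most 13.5, with 8 joints listed at 0. For the interferon-gamma-induced genes it was the highest joint in 13 of 13, with a summed count of 87338 beside 27591 to 48760.1. Among them the chemokine gene Cxcl9 had 2853 in this joint and at most 376 in the others, and Cd74, the MHC class II invariant chain gene, 27417 and at most 16439.6. Irf1 had 2609 beside at most 1833, and the class II transactivator gene Ciita 1129 beside at most 607. Gm12185 and Gm5431, other IRG family genes, had 146 and 341 beside at most 97.3 and 157. Ciita, Cxcl9, Gm12185 and Gm5431 were named after their values were seen.

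In summed counts the other lists differed less in that joint. For the 20 type I interferon-induced genes, STING-MSC replicate 3 was highest in 10, but its summed count of 23999.7 ranked 3 behind TLR3-MSC replicate 1 at 31202 and control replicate 5 at 24396. Rsad2, named after its values were seen, made up much of these sums, with 6855, 13234 and 10353 in the same order of joints. By single genes, the median ratio of this list was 1.53 in STING-MSC replicate 3 and 1.14 in control replicate 5. The summed count of the 8 type I interferon pathway genes was 1.19-fold the median of the other joints, with 0 genes at least 2-fold and a median ratio of 1.13. That of the 9 interferon-gamma pathway genes was close to it at 1.21-fold, with 2 genes at least 2-fold and a median ratio of 1.48. The sum of the 6 other IRG family genes was 1.19-fold. That of the 11 autophagy conjugation genes, whose products direct IRGs to vacuoles, was 0.951-fold. Markers of T cells and NK cells, both known to make interferon-gamma, had 1.43-fold and 1.28-fold summed counts in replicate 3, with no gene of the 7 and 6 at least 2-fold and Cd4 and Nkg7 the most abundant. Summed counts of macrophage and monocyte genes (Lyz2 the most abundant) were 1.28-fold, of neutrophil genes (S100a8) 1.33-fold, of B cell genes (Cd79b) 1.30-fold and of dendritic cell genes (Siglech) 1.24-fold. Chondrocyte genes had a summed count of 66183, 1.66-fold the median of the other joints. By single genes they differed more, with 4 of 6 at least 2-fold and a median ratio of 3.37, beside 8 of 13 and 2.38 for the interferon-gamma-induced genes. The part of these markers in the IRG values was not tested. In control replicate 5 the guanylate-binding protein sum was 4757, the second highest, whereas the interferon-gamma-induced sum of 42205 was 1.09-fold and the T cell and NK cell sums 0.862-fold and 0.845-fold. Its macrophage and monocyte sum was the lowest of the 20 joints at 0.658-fold and its erythroid sum the highest at 1.28-fold, with neutrophil genes at 0.668-fold, adipocyte genes at 0.619-fold and endothelial genes at 1.42-fold.

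F830016B08Rik varied with skeletal muscle genes, while its correlations with the interferon lists were near 0 or negative. After subtracting group means, its log2 count had r = 0.75 and rho = 0.75 with the summed count of 5 skeletal muscle genes over the 20 joints, and r = 0.69 without the 2 joints farthest from the median. All 5 muscle genes were above 0 in every joint, and Myh4 was the most abundant. Their summed counts were 1653497, 2000759, 1364688, 1706426 and 1714523 in control replicates 1 to 5 and 692545, 1151650.3, 860842, 1540537 and 2255663 in MSC replicates 1 to 5. They were 954436, 2054921, 2460876, 1180814 and 1119329 in TLR3-MSC replicates 1 to 5 and 2290674, 2969819, 1377744, 1568808 and 1160788 in STING-MSC replicates 1 to 5. STING-MSC replicates 1 and 2 and TLR3-MSC replicates 2 and 3, the joints with high F830016B08Rik apart from STING-MSC replicate 3, all had sums of at least 2054921, as did MSC replicate 5, the highest F830016B08Rik joint of its group, and MSC replicate 1 was lowest in both. The median log2 fold change of the muscle genes was 0.48 for STING-MSC against MSC, 0.27 for STING-MSC against TLR3-MSC, 0.20 for TLR3-MSC against MSC, 0.04 for STING-MSC against control and −0.43 for MSC against control. The values with STING-MSC were 0.58, 0.35 and 0.12 against MSC, TLR3-MSC and control without replicate 3. For TLR3-MSC against control it was −0.15, with 0 of the 5 higher, while F830016B08Rik was 0.22 higher, and 0.03 higher without TLR3-MSC replicate 3. Of the muscle genes, 0 of the 5 were called by limma, edgeR or DESeq2 in any comparison. Their unadjusted p was 0.05 or less for 0 in limma and edgeR, and for 1 in DESeq2 in STING-MSC against MSC. The part of muscle in the F830016B08Rik values was not tested.

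With leucocyte and erythroid markers the sign was opposite. F830016B08Rik had r = −0.73 with the summed NK cell genes, −0.70 with the T cell, neutrophil and dendritic cell genes, −0.59 with the B cell genes and −0.55 with the macrophage and monocyte genes. With the erythroid genes r was −0.62. With the guanylate-binding proteins r was −0.08, with the interferon-gamma-induced genes −0.41, with the type I interferon-induced genes −0.42, and with the interferon-gamma and type I pathway genes −0.62 and −0.66. With the autophagy conjugation genes it was 0.69. The genes outside the family most like it were Acsl3, which encodes an acyl-CoA synthetase, at r = 0.89, Zdhhc5, Stxbp4 and Camsap1 at 0.87, and Lingo3 at 0.86, chosen after their values were seen from 14784 genes searched. Acsl3 had normalized counts of 702, 701, 666, 959.9 and 636 in control replicates 1 to 5 and 472, 613, 619, 660.2 and 763 in MSC replicates 1 to 5. Acsl3 counts were 527, 663, 693, 468 and 527 in TLR3-MSC replicates 1 to 5 and 861, 811, 656, 612 and 408 in STING-MSC replicates 1 to 5. The groups overlapped in Acsl3, with control replicate 4 highest, STING-MSC replicates 1 and 2 next and STING-MSC replicate 5 lowest. Without the 2 joints farthest from the median, STING-MSC replicate 1 and MSC replicate 1, the r of these 5 genes lay between 0.80 and 0.85.

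**Figure D2:**
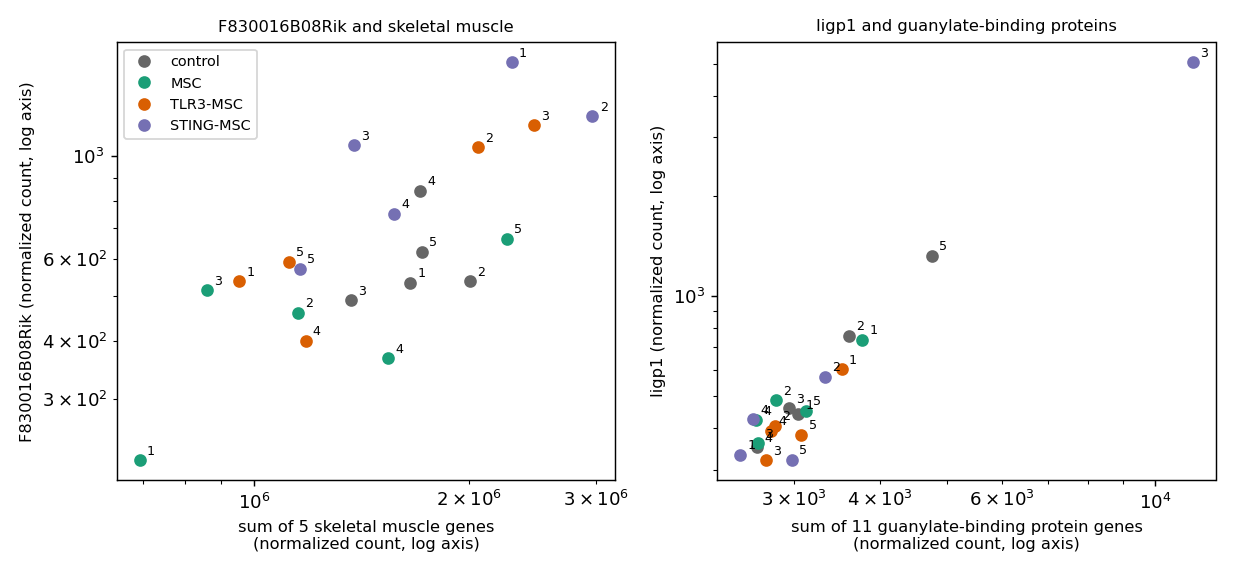
Left, F830016B08Rik normalized counts against the summed counts of 5 skeletal muscle genes, and right, Iigp1 against the summed counts of 11 guanylate-binding protein genes, each point a joint labelled by replicate and coloured by group. STING-MSC replicate 3 lies at 5052 and 11353 in the right panel, while in the left panel F830016B08Rik runs from 222 in MSC replicate 1 to 1593 in STING-MSC replicate 1.

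Markers of other tissues were compared between the groups as well. Of the 8 neutrophil genes limma called 0 in any comparison, with a median log2 fold change of 0.53 after MSC, 0.28 after TLR3-MSC and 0.49 after STING-MSC against control. Their unadjusted p from limma was 0.05 or less for 6, 0 and 7 of the 8 in this order, against 1265, 530 and 1808 of all 14793 genes, and edgeR and DESeq2 also called 0. The FDR was 0.05 or less for 1 of the 8 in DESeq2, S100a8 after MSC against control. Adipocyte genes held 1 called gene, Plin1 after TLR3-MSC against control (log2 fold change 1.04, SE 0.49, unadjusted p = 0.0466 and FDR = 1.00 from limma), which edgeR and DESeq2 did not call. Epidermis genes held 3, Krt5, Krt10 and Lor, lower after STING-MSC than after TLR3-MSC with log2 fold changes of −5.01, −2.39 and −3.95 (FDR = 0.890 from limma). The summed epidermis count was 21967 in TLR3-MSC replicate 4 and 6995 in control replicate 1, and at most 1519 in the other joints. Of the remaining lists, 0 genes were called in limma, while edgeR called 2 synovial fibroblast genes in STING-MSC against control and DESeq2 called 3 there and 2 in STING-MSC against TLR3-MSC. All 5 epidermis genes were called in edgeR in the comparisons of STING-MSC with control and TLR3-MSC and of TLR3-MSC with MSC, and Lor in DESeq2 in these and in MSC against control. Against control, the median of the 5 synovial fibroblast genes was −0.88 after STING-MSC, −0.14 after TLR3-MSC and −0.49 after MSC, that of the 6 chondrocyte genes −0.54, −0.51 and −0.18, and that of the 5 endothelial genes −0.51, −0.38 and −0.21. After STING-MSC they were −1.01, −0.96 and −0.48 without replicate 3, left out after the data were seen. Leaving out control replicate 5 instead, they were −1.07, −0.66 and −0.51 after STING-MSC, −0.26, −0.54 and −0.40 after TLR3-MSC and −0.67, −0.28 and −0.20 after MSC. The r of the mean of the 9 IRG genes was 0.39 with the summed B cell genes, 0.38 with the NK cell genes, 0.36 with the T cell and dendritic cell genes, 0.31 with the erythroid, 0.24 with the neutrophil and 0.20 with the macrophage and monocyte genes (n = 20). It was −0.27 with the skeletal muscle, −0.24 with the adipocyte, −0.22 with the synovial fibroblast and −0.19 with the endothelial genes. With the chondrocyte, osteoblast and osteocyte, and epidermis genes it was 0.10, −0.06 and −0.12. Without the 2 joints farthest from the median, r was 0.57 with NK cell, 0.48 with T cell and dendritic cell, 0.38 with neutrophil and −0.38 with synovial fibroblast genes. The part of these cell types in the IRG values was not tested.

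**Figure D3:**
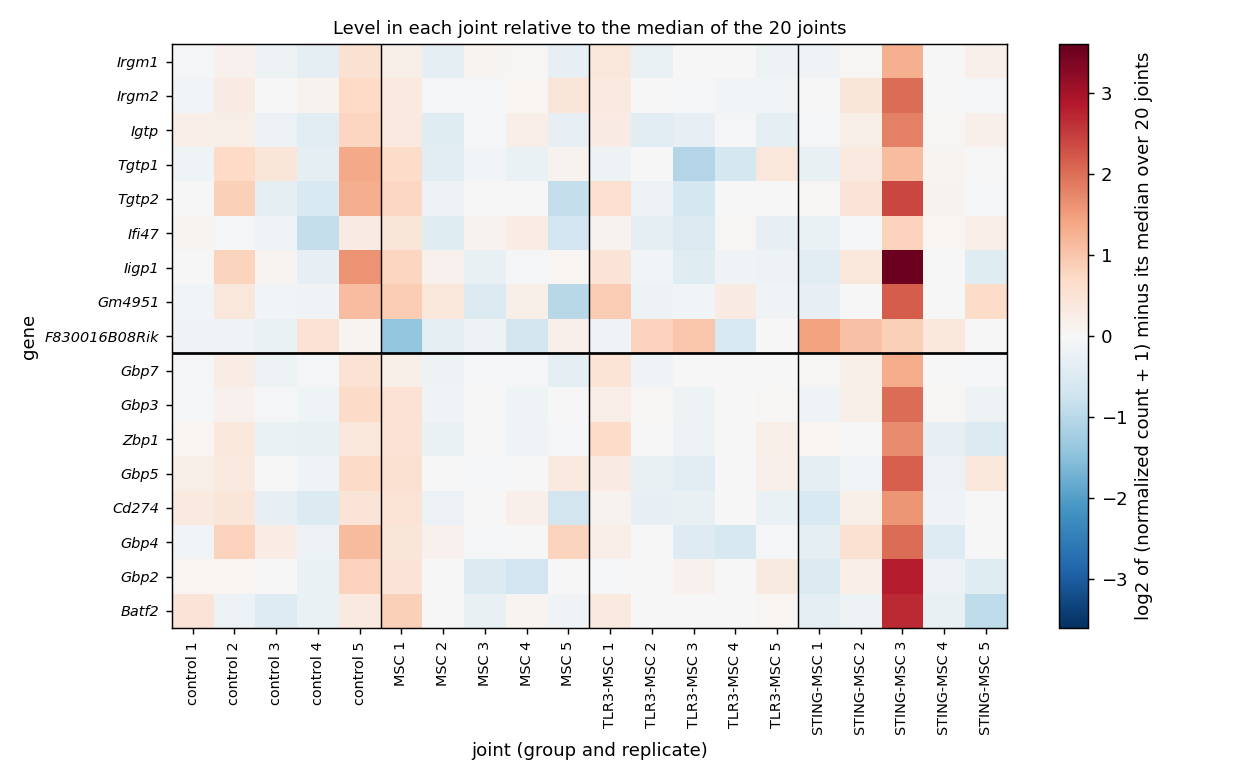
Log2 normalized counts relative to the median of the 20 joints for the 9 IRG genes and the 8 genes most like their mean, with 1 column per joint, ordered by group. The column of STING-MSC replicate 3 is above the median for every gene shown, and Gbp2, for example, had 3728 normalized counts there and at most 932 in the other joints.

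Guanylate-binding protein genes followed the IRG genes most closely across the joints. The 8 genes outside the family with the highest Pearson correlation with the mean of the 9, over 20 joints after subtracting group means, held 5 of them. Gbp7 had r = 0.97 and rho = 0.90, Gbp3 0.96 and 0.87, Gbp5 0.90 and 0.75, Gbp4 0.88 and 0.74, and Gbp2 0.87 and 0.62. The other 3 were Zbp1, a sensor of nucleic acids, at 0.93 and 0.79, Cd274, the PD-L1 gene, at 0.90 and 0.87, and Batf2 at 0.87 and 0.77. Gbp7 had normalized counts of 618, 765, 563, 607 and 916 in control replicates 1 to 5 and 743, 567, 607, 618 and 511 in MSC replicates 1 to 5. Gbp7 counts were 900.1, 589, 643, 649 and 644 in TLR3-MSC replicates 1 to 5 and 657, 734, 1606, 633 and 604 in STING-MSC replicates 1 to 5. Gbp7 was highest in STING-MSC replicate 3, control replicate 5 and TLR3-MSC replicate 1, the same joints in the same order as Irgm1, and the groups overlapped. Without STING-MSC replicate 3 and control replicate 5, r was 0.89 for Gbp7, 0.84 for Zbp1, 0.83 for Gbp3, 0.81 for Cd274, 0.58 for Gbp4 and Gbp5, 0.54 for Batf2 and 0.35 for Gbp2. The relation thus rested on those joints for Gbp2 more than for Gbp7. With the summed counts of all 11 guanylate-binding protein genes, r was 0.96, and 0.82 without the 2 joints farthest from the median.

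Promoter sequence is shared by several of the genes that varied together. The RefSeq promoter table (GRCm38.p6, 250 bases before to 50 after each start) was searched on both strands for TTCNNNGAA, the core of the interferon-gamma-activated site (GAS), which reads the same on both. Of the 9 genes, 6 had an entry. TTCNNNGAA was found once in each of 4 of these 6, Tgtp1, Tgtp2, Igtp and Irgm2, and in neither Irgm1 nor Ifi47, against 8.30% of 32851 promoters. In the 7 lists of related genes, of 6 to 16 promoters each, the share ran from 12.5% for the interferon-gamma-induced genes to 33.3% for the guanylate-binding proteins and the other IRG genes. A second motif was searched for too and is not reported here. A match is a description of letters and not of binding. The 4 matches lie in sequence that these genes share, so they are not 4 separate observations beside the 8.30%. The 30 bases around each match are shown because their likeness between genes is seen best in the letters, with capitals marking the 24 bases that are the same in all 4 genes. They were placed on GRCm39 by exact match of the 60 bases around them, at chr11:48883137-48883166 (minus strand, overlapping its GENCODE exons) for Tgtp1, chr11:48955096-48955125 (minus strand, outside its GENCODE exons) for Tgtp2, chr11:58090332-58090361 (plus strand, overlapping its GENCODE exons) for Igtp, chr11:58105723-58105752 (plus strand, outside its GENCODE exons) for Irgm2. GENCODE starts Igtp at 58089840, before its deposited start. Over 60 bases, Igtp and Irgm2 were identical at 58 positions, Tgtp1 and Tgtp2 at 46, and the other pairs at 38 to 42.
Tgtp1: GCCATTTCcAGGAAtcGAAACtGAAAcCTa
Tgtp2: GCCATTTCcAGGAAtcGAAACcGAAAcCTa
Igtp: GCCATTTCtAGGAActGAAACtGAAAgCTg
Irgm2: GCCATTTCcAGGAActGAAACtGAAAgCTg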

How the data were processed

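Bulk mRNA sequencing of 20 mouse knee joints was used, each replicate a separate mouse. The authors filtered reads in Partek Flow, aligned them to GRCm39 with STAR 2.7.3a, counted them with HT-seq on the Ensembl annotation and deposited a normalized signal, the reads per gene divided by a median-ratio size factor. Whole reads were recovered as multiples of the value of 1 read in each library, and 99.8% to 99.9% of values came within 0.1 of a whole read. In MSC replicate 3, where 1 read is worth 0.9949, whole reads are hard to tell from whole values. Depth was 27955496 to 52529973 reads per joint, so reads limit mainly the rarer genes.

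Log2(normalized count + 1) of all 14793 genes was fitted over the 4 groups with limma 3.58.1 (trend option, R 4.3.3), with the Benjamini-Hochberg FDR over all genes. All comparisons of a gene therefore share 1 estimate of its spread, from all 20 joints. No filter was used. Genes were called where the unadjusted p was 0.05 or less and the change 2-fold or more. Alternatives were edgeR 4.0.16 and DESeq2 1.42.0 on the recovered reads, pseudocounts of 0.5 and 5, a mean count of at least 20, only the groups compared, quantile normalization, the replicate number as a block, the Tgtp genes summed, and each joint left out. The code was tested on simulated data. Exon lengths came from GENCODE vM39.

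The members and lists were chosen with earlier results of these data known. Named were all 9 members, Ifng, Ifngr1, Ifngr2, Irf1, Irf8 and Gm12250, the most abundant gene per kilobase of each list, up to 4 called genes per list, and the 8 genes most like the members' mean. Of the genes to be named, 1 is not reported here.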

Additional observations from a re-analysis of the deposited data

Results flagged for a closer look

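Within groups of 5 joints, a joint was set apart where its gap to the nearest joint, divided by the range of the group, passed Dixon's 95% limit. The ratio was taken on normalized counts without log2, so which genes pass can depend on the scale. This was tested for the 9 genes in 4 groups, 36 times in all, and a joint was set apart 7 times. Chance sets apart about 1 in 20 groups where values are normally distributed. Of all genes, 5.05% in the control group to 7.37% in the STING-MSC group had a joint set apart. Of the 7, 6 are in STING-MSC replicate 3. An interferon-induced gene in that joint was known when the genes were chosen, so the count is a description and no test. STING-MSC replicate 3 lay far above the other joints of its group in 6 genes. Its normalized counts were 5052 for Iigp1 (ratio 0.947), 3839.5 for Igtp (0.925), 1275 for Tgtp2 (0.902), 4113 for Irgm2 (0.868), 2769 for Irgm1 (0.855) and 440.1 for Gm4951 (0.790). These 6 are 1 joint and genes that vary together, and so are not 6 separate observations. What set the joint apart was not tested. TLR3-MSC replicate 1 lay above the other joints of its group in Irgm2 at 1298 (0.808).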

How the results depend on the processing

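With 1 exception, 0 of the 9 genes were called under the alternatives in the 5 comparisons with a p, apart from Iigp1 in DESeq2, which gave it no p. The exception was edgeR in STING-MSC against TLR3-MSC, where 1 gene (Iigp1) was called. Directions of single genes turned without a joint or with the scaling. After quantile normalization the log2 fold change of Tgtp1 in STING-MSC against control was 0.00 in place of −0.15. Tgtp2 in TLR3-MSC against MSC was at 0.01, and at −0.02 with DESeq2, −0.02 with edgeR, −0.05 with quantile normalization and −0.05 with Tgtp1 and Tgtp2 summed. The cause was not tested.

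The number of all genes called depended more on the processing. It was 66 with a minimum mean count of 20 and 68 with a pseudocount of 5 for MSC against control, and 22, 27 and, with only the groups compared, 23 for TLR3-MSC against MSC (59). For STING-MSC against TLR3-MSC (92) it was 232 with DESeq2, 234 with edgeR and 170 with only the groups compared. For STING-MSC against MSC (75) it was 142 with DESeq2, 113 with edgeR, 44 with a minimum mean count of 20 and 42 with a pseudocount of 5. Quantile normalization moved the share of called genes that were lower from 63.0% to 35.6% for MSC against control, 86.6% to 72.7% for STING-MSC against control, 90.2% to 68.3% for STING-MSC against TLR3-MSC, 18.6% to 73.1% for TLR3-MSC against MSC and 52.0% to 62.3% for STING-MSC against MSC. With DESeq2, edgeR and only the groups compared, this share was 49.4%, 41.6% and 48.0% for MSC against control, 42.4%, 30.3% and 43.5% for TLR3-MSC against MSC and 76.8%, 76.1% and 60.3% for STING-MSC against MSC. The cause was not tested, except that a higher minimum leaves fewer genes to test.

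With each joint left out in turn, the number of all genes called was 62 (without control replicate 4) to 432 (without MSC replicate 2) for MSC against control, 29 (without control replicate 3) to 107 (without control replicate 1) for TLR3-MSC against control, 137 (without control replicate 4) to 489 (without control replicate 1) for STING-MSC against control, 42 (without TLR3-MSC replicate 3) to 236 (without MSC replicate 2) for TLR3-MSC against MSC, 37 (without STING-MSC replicate 5) to 189 (without TLR3-MSC replicate 1) for STING-MSC against TLR3-MSC and 61 (without MSC replicate 5) to 125 (without MSC replicate 4) for STING-MSC against MSC. For MSC against control, log2 fold changes ran from −0.18 to 0.05 for Irgm1, from −0.13 to 0.07 for Irgm2, from −0.28 to 0.00 for Igtp, from −0.11 to 0.23 for Ifi47 and from −0.47 to 0.01 for Gm4951. For TLR3-MSC against control, log2 fold changes ran from −0.14 to 0.10 for Irgm1, from −0.25 to 0.03 for Ifi47 and from −0.26 to 0.15 for Gm4951. For STING-MSC against control, log2 fold changes ran from −0.36 to 0.09 for Tgtp1, from −0.12 to 0.60 for Tgtp2, from −0.13 to 0.40 for Irgm2, from −0.02 to 0.48 for Igtp, from −0.55 to 0.47 for Iigp1 and from −0.14 to 0.49 for Gm4951. For TLR3-MSC against MSC, log2 fold changes ran from −0.19 to 0.21 for Tgtp2, from −0.05 to 0.12 for Irgm1 and from −0.08 to 0.40 for Gm4951. For STING-MSC against TLR3-MSC, log2 fold changes ran from −0.03 to 0.96 for Iigp1 and from −0.07 to 0.55 for Gm4951. The cause was not tested beyond the joint left out.

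With the replicate number as a block, the numbers of all genes called were 110, 39, 285, 55, 85 and 71 in the order of the comparisons above, and 0 of the 9 genes were called by limma in those with a p. Same-numbered joints had correlations of −0.658 to 0.464 after subtracting group means. The labels give only a number, and these correlations cannot show whether such joints were handled together. The joints were treated as unpaired in the main fit.

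Depth limits mainly genes with few reads, such as Tgtp1 and Gm4951. Groups of 5 joints, 1 of which holds most of the Iigp1 counts of its group, limit what the means can show. Reads shared by Tgtp1 and Tgtp2, the time of collection and the strand of the counting are uncertain.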
